A study of Mus musculus with 2 samples.

Results

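The genes of the filaggrin group and of the cornified envelope were examined in organoids of normal mouse urothelium, the stratified epithelium that lines the bladder. The set held 8 members, Flg, Crnn, Rptn, Ivl, Cnfn, Tgm1, Calml3 and Nccrp1, among 31053 gene identifiers in the deposited matrices. The members were chosen by their symbols, with their levels and shares of cells in these same libraries already known, so their differences between the libraries are given as a description and were not tested. The choice set no threshold on a value, and all 8 members are described below.

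Organoids were read by single-cell RNA sequencing in droplets, in which each captured RNA molecule carries a unique molecular identifier (UMI) and is counted once. The mice were C57BL/6, wild type (WT) and 8 to 10 weeks old, and this held for both libraries. The proliferative organoids (NMU-O-P, here P) grew in complete medium with EGF, Noggin, WNT3A, RSPO1 and LY2157299, which blocks TGF-β receptor signalling. The differentiated organoids (NMU-O-D, here D) were moved to medium without any of these 5 additions. Each condition held 1 library, so that culture, library and condition cannot be told apart, and neither p-values nor standard errors are given. After exclusion of barcodes with 800 genes or fewer, or with more than 12% mitochondrial UMIs, 6818 cells remained in P with 26681469 UMIs and 4896 in D with 20305621 UMIs. The median cell held 3405.5 UMIs in P and 3227.5 in D.

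In the epidermis and other squamous epithelia, cells leaving the basal layer replace their plasma membrane by a cornified envelope, a shell of proteins joined by transglutaminases. Flg, Crnn and Rptn belong to the fused S100 proteins, which join a calcium-binding S100 domain to long repeats. Filaggrin, the product of Flg, binds keratin filaments in the outer epidermis, while cornulin (Crnn) is known best from oesophagus and oral mucosa and repetin (Rptn) from tongue and forestomach. Ivl encodes involucrin, an early envelope precursor. Cnfn encodes cornifelin, another envelope protein, and Tgm1 encodes transglutaminase 1, the membrane-bound enzyme that joins precursors. Calml3 encodes a calmodulin-like protein of stratified epithelia and Nccrp1 an F-box-like protein first described as a receptor of cytotoxic cells in fish. The normal urothelium does not cornify. Its luminal cells are coated instead with uroplakin plaques.

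Of the 8 members, 4 lie on chromosome 3 (GRCm38) within the epidermal differentiation complex, the gene cluster that holds most envelope genes. Ivl lies at chr3:92570902-92573735 on the minus strand, and Crnn (chr3:93144787-93149819), Flg (chr3:93273523-93293686) and Rptn (chr3:93393699-93399442) on the plus strand. The others lie elsewhere, Cnfn at chr7:25367620-25369724, Nccrp1 at chr7:28543596-28547254, Calml3 at chr13:3802896-3804316 and Tgm1 at chr14:55700009-55713926, all on the minus strand. RefSeq promoters (GRCm38.p6) were matched for 6 of the 8 members, with 7 entries in all since Tgm1 has 2. The promoters of the 4 chromosome 3 members are shown because 3 of these neighbours were far lower in D while Ivl was not. Each line runs 5′ to 3′ on the strand of the gene over 140 bases, from position -130 to position 9, with the annotated start base counted as 0. Capitals mark the letters TATAAA of a TATA box and TGANTCA, a pattern of AP-1 type, of which TGACTCA is the usual AP-1 site.
Ivl (chr3:92573726-92573865, minus strand): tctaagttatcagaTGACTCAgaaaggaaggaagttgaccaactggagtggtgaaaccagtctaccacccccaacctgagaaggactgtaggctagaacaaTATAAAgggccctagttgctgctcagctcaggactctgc
Crnn (chr3:93144659-93144798, plus strand): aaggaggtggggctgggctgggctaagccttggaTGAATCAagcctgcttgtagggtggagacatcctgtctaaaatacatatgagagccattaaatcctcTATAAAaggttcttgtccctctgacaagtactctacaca
Flg (chr3:93273416-93273555, plus strand): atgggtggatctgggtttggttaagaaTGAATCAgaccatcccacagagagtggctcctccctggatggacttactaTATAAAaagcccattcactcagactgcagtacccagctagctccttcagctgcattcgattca
Rptn (chr3:93393569-93393708, plus strand): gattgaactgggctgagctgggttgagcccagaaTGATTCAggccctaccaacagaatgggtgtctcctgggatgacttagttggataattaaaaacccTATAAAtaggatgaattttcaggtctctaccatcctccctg

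All 4 of these promoters held both sets of letters. TGANTCA began at position -116 in Ivl, -96 in Crnn, -103 in Flg and -96 in Rptn, and TATAAA at position -29 in Ivl, -29 in Crnn, -53 in Flg and -31 in Rptn. Of these, the usual AP-1 site TGACTCA was found in Ivl alone, whereas Crnn and Flg had TGAATCA and Rptn TGATTCA, which differ from it in the middle base. Among all 32851 promoters of the same 300 bases, searched on both strands, 7.81% held TGANTCA and 13.6% held TATAAA. Neither set of letters was found in the Cnfn entry or in either Tgm1 entry. Letters of a grainyhead site (AACCNGTT, 2.09% of all promoters) were found in Rptn only, and the short KLF-type letters CACCC (57.5% of all promoters) in all 7 entries. The motifs were chosen after these sequences had been seen, and a match is a description of the letters, not evidence that a factor binds.

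To compare the libraries, UMIs were summed over the kept cells and divided by the library total, as counts per 1000000 UMIs (CPM), with exact Poisson 95% intervals. UMIs come from the 3′ ends of transcripts and were not divided by gene length. Flg had 5651 UMIs in P, 212 CPM (206 to 217), and 1 UMI in D, 0.0492 CPM (0.00125 to 0.274). Crnn had 3019 UMIs in P, 113 CPM (109 to 117), and 11 in D, 0.542 CPM (0.270 to 0.969). Rptn had 138 UMIs in P, 5.17 CPM (4.35 to 6.11), and 10 in D, 0.492 CPM (0.236 to 0.906). All 3 fused S100 members were thus read almost entirely in P. Their intervals did not overlap, but these cover counting error only, and the share of all genes with such intervals was not counted. On the log2 scale the D over P ratio was -12.07 (exact conditional binomial 95% interval -17.37 to -9.59) for Flg, -7.71 (-8.71 to -6.87) for Crnn and -3.39 (-4.48 to -2.47) for Rptn. The width of the Flg interval came from the single UMI in D.

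The envelope precursors differed from each other. Ivl had 3307 UMIs in P, 124 CPM (120 to 128), and 4185 in D, 206 CPM (200 to 212). Cnfn had 154 UMIs in P, 5.77 CPM (4.90 to 6.76), and 2 in D, 0.0985 CPM (0.0119 to 0.356). Ivl was therefore higher in D by 0.73 on the log2 scale (0.67 to 0.80), while the log2 ratio of Cnfn was -5.87 (-8.93 to -3.995). Tgm1, the cross-linking enzyme, had 325 UMIs in P, 12.2 CPM (10.9 to 13.6), and 41 in D, 2.02 CPM (1.45 to 2.74), a log2 ratio of -2.59 (-3.10 to -2.12). Calml3 had 492 UMIs in P, 18.4 CPM (16.8 to 20.1), and 36 in D, 1.77 CPM (1.24 to 2.45), a log2 ratio of -3.38 (-3.91 to -2.89). Nccrp1 had 3389 UMIs in P, 127 CPM (123 to 131), and 15 in D, 0.739 CPM (0.413 to 1.22), a log2 ratio of -7.43 (-8.26 to -6.70). Of the members that were lower in D, Tgm1 differed least and Flg most.

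**Figure D1:**
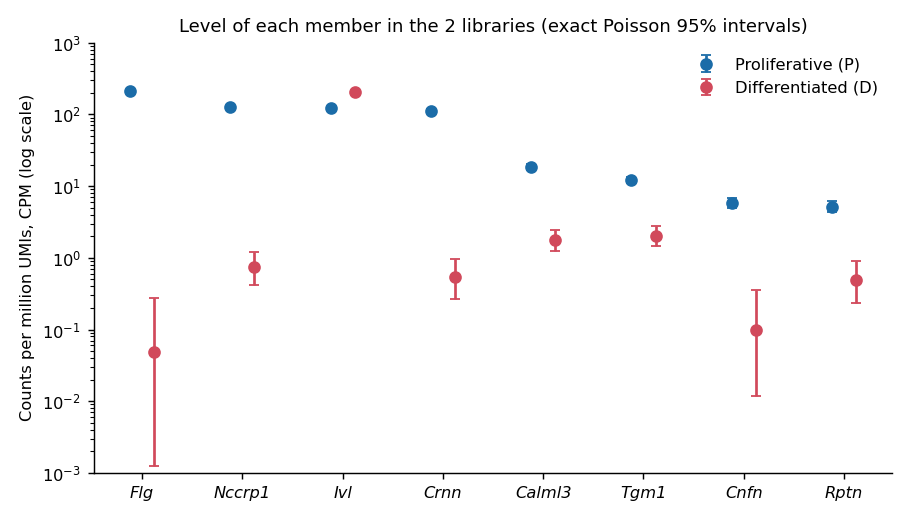
The vertical axis gives the level of each member in CPM on a log scale, with blue points for the proliferative library (P), red points for the differentiated library (D) and bars for exact Poisson 95% intervals. For 7 members the red point lies below the blue one, and for Ivl it lies above, at 206 against 124.

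In all, 7 of 8 members were at least 2-fold lower in D, against 4.73% of the 10719 genes that reached 100 UMIs when the libraries were added, and 0 of 8 were at least 2-fold higher, against 13.5% of those genes. Nothing is read from the distance to these shares, since the members were chosen with their levels in both libraries already known. The median log2 ratio of the members was -4.63, and that of these 10719 genes was 0.41. Ribosomal protein genes made up 37.5% of all UMIs of P and 21.4% of those of D, and over the 8939 genes that reached 100 UMIs in both libraries separately the median was shifted by 0.42 toward D. Relative to that shift Ivl was higher in D by 0.31 and the other members were lower still.

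The order of the levels changed between the libraries. In P it ran Flg, Nccrp1, Ivl, Crnn, Calml3, Tgm1, Cnfn and Rptn, and the intervals of Nccrp1 and Ivl and those of Cnfn and Rptn overlapped. In D, Ivl alone held 97.3% of the 4301 UMIs of the set, against 20.1% of 16475 UMIs in P. The other 7 members came to 494 CPM in P and 5.71 CPM in D, a difference of 86.4-fold. Nccrp1 overlaps Samd4b on the same strand, and reads in the overlap cannot be told apart. For Samd4b 669 UMIs were counted in P, 824 in D.

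The other genes between Ivl and Rptn on chromosome 3 were mostly silent. The 0.829 Mb from Ivl to Rptn (chr3:92570902-93399442) holds 34 protein-coding genes in the GENCODE annotation, and all were listed in the matrices. Of the 30 that are no members, 21 were at 0 UMIs in P and 0 had 100 UMIs or more there. The highest was Crct1 with 17 UMIs in P and 0 in D. The filaggrin-like neighbours of Flg in this stretch were nearly undetected, with 1 UMI of Flg2 and 4 UMIs of Hrnr in P and 0 of both in D. The late cornified envelope (Lce) genes, whose products enter the epidermal envelope at its final stage, reached at most 10 UMIs in P (Lce1h) and 21 in D (Lce6a). Almost all UMIs of this stretch thus came from the 4 members. Not all genes just outside it were silent. On the side of Ivl, Sprr4 (chr3:92500263-92500493) was at 0 UMIs in both libraries. Sprr1a (chr3:92483952-92485895) had 18416 UMIs in P and 16367 in D. On the side of Rptn, Tchh (chr3:93442330-93449077) had 1073 and 352. Lce genes resemble each other closely, so that reads shared between copies may have been lost in the alignment.

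Genes with related roles were counted from lists that hold the members as well. Among the fused S100 genes, 4 of 7 had at least 100 UMIs and all 4 were at least 2-fold lower in D, the fourth being the hair follicle gene Tchh with 1073 UMIs in P and 352 in D. Of 7 envelope precursors with at least 100 UMIs, 2 were lower, Cnfn and the protease inhibitor gene Cst6 (129 UMIs in P and 34 in D), and 0 were higher. Lor, which encodes the main protein of the epidermal envelope, was low in both libraries, with 279 UMIs in P, 237 in D and a log2 ratio of 0.16 (-0.10 to 0.41). The plakin genes Evpl and Ppl and the desmosomal gene Dsp, which anchor the envelope, had log2 ratios of -0.01 (-0.12 to 0.10), 0.60 (0.50 to 0.70) and 0.16 (0.11 to 0.20). Ppl was thus higher in D by less than 2-fold.

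Small proline-rich (Sprr) genes, which encode short envelope proteins, split within the family. Of 9 with at least 100 UMIs, 3 were at least 2-fold lower in D and 0 higher. Sprr2h had 426 UMIs in P and 4 in D, Sprr2f 2573 and 57, and Sprr2d 146 and 6, whereas Sprr1a had 18416 and 16367 and Sprr2a3 12828 and 19217. The Sprr2 copies are near-identical and the split of reads among them is uncertain. Of 7 transglutaminase and peptidylarginine deiminase genes, 2 were lower, Tgm1 and Padi3, and 2 were higher, Padi2 (14 UMIs in P and 122 in D) and Tgm5 (68 and 191). Tgm3, the transglutaminase of the late envelope, was at 0 UMIs in both libraries.

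Of 9 protease and protease inhibitor genes with at least 100 UMIs, 5 were at least 2-fold lower in D and 0 higher. Csta1, a cystatin A gene, had 12098 UMIs in P against 1416 in D, and Spink5, which inhibits kallikreins of the skin, 350 against 41. Blmh, a peptidase of filaggrin breakdown, had 2910 against 1051. Casp14, the caspase of the cornifying epidermis, had 63 UMIs in P against 42 in D, and Klk5 and Klk7, the kallikreins that shed corneocytes, were at 0 in both. The calcium-binding gene S100a14 was, like Calml3, at least 2-fold lower in D (34016 UMIs in P, 12838 in D). Of 16 regulators of squamous differentiation, 4 were lower, among them Maf and Klf4 (3842 UMIs in P and 1217 in D), and 2 were higher, Gata3 (log2 ratio 1.29) and Grhl1 (1.08). Relative to the shift of all genes, 8 of the 16 were at least 2-fold lower in D and 0 higher, with Gata3 at 0.87 and Grhl1 at 0.66, and without mitochondrial and ribosomal protein genes in the totals 7 were lower and 0 higher.

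Keratins of stratified epithelia other than Krt5 and Krt14 differed in both directions, with 4 of 12 at least 2-fold lower in D and 4 at least 2-fold higher. Krt6b had a log2 ratio of -4.88 (-5.48 to -4.34) and Krt13, a keratin of non-cornified squamous epithelia, -4.16 (-4.27 to -4.04), whereas Krt4 had 1.96 and Krt15, which is known from the basal layer, 1.86. Of 7 desmosomal and corneodesmosomal genes with at least 100 UMIs, 0 passed a 2-fold difference in either direction, and Cdsn, the corneodesmosin gene, had 0 UMIs in P and 1 in D. Of 5 genes of the lipid envelope, 1 was at least 2-fold higher in D, the ceramide synthase gene Cers3 (228 UMIs in P and 421 in D), at a log2 ratio of 1.28 that fell under 2-fold relative to the shift of all genes (0.86) and without mitochondrial and ribosomal protein genes in the totals (0.94). The 5 uroplakin genes came to 20.5 CPM in P and 1245 CPM in D, and all were at least 2-fold higher in D. The 12 proliferation markers came to 266 and 29.0 CPM, and all were at least 2-fold lower. Of 8 early-response genes induced when tissue is dissociated, 5 were higher in D by at least 2-fold, with 0 lower, and their part in the levels of the members was not tested.

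Markers of other cell types were looked for. The 6 fibroblast markers came to 1.99 CPM in P and 62.5 in D, the 6 leukocyte markers to 1.01 and 20.2, the 5 endothelial markers to 5.17 and 3.30, and the 4 erythroid markers were at 0 in both. Most of the fibroblast and leukocyte signal in D came from a single gene each, Dcn with 1234 UMIs and Laptm5 with 400, while the fibroblast marker Col1a2 and the leukocyte marker Tyrobp were at 0 and Ptprc had 2. The highest of these lists in P, the endothelial one at 5.17 CPM, stood level with Rptn (5.17 CPM) and near Cnfn (5.77 CPM). The other members were higher in P, from 12.2 CPM for Tgm1 upward. The part of other cell types in the levels of the members was not tested.

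To ask how many cells carried each member, each kept cell was thinned at random to 2100 UMIs, which left out 180 shallower cells in P and 479 in D. In P, Ivl was detected in 17.3% of 6638 cells (exact Clopper-Pearson 95% interval 16.4 to 18.3%), Flg in 14.1% (13.2 to 14.9%), Nccrp1 in 13.7% (12.9 to 14.6%) and Crnn in 12.2% (11.4 to 13.0%). Tgm1 was detected in 2.35% of cells, Calml3 in 1.78%, Cnfn in 0.557% and Rptn in 0.527%. In D, Ivl was detected in 26.3% of 4417 cells (25.01 to 27.6%) and the other members in at most 0.453%, which was the share of Tgm1. Detection was therefore a minority trait in P for every member, at this depth.

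As cells not expected to cornify, cycling cells, defined by at least 2 of 12 proliferation genes after thinning, gave a share for comparison. The 336 cycling cells of P had a median of 4004.5 UMIs before thinning, against 3412.5 in the other cells. Flg was detected in 2.68% of cycling cells (1.23 to 5.02%) and 14.7% of the other cells (13.8 to 15.6%), Crnn in 2.68% and 12.7%, Nccrp1 in 1.49% and 14.4%, and Ivl in 9.52% (6.61 to 13.2%) and 17.7% (16.8 to 18.7%). For these 4 genes the intervals of both classes did not overlap, but the share of all genes that separate so was not counted. For Tgm1 (1.49% of cycling cells), Cnfn (0.298%) and Calml3 (0.298%) the intervals overlapped, and Rptn was found in 0 of 336 cycling cells, which by a limit of 3 counts allows a share of up to 0.893% and so does not separate it from its 0.555% in the other cells.

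Members differed in how their UMIs were spread over cells, before thinning. Flg reached 72 UMIs in a cell, and 133 of its 1219 positive cells in P had 10 UMIs or more, with a median of 3. Crnn reached 17 UMIs in a cell and Nccrp1 21, with medians of 2, and Ivl reached 14 with a median of 1. Tgm1 was read as a single UMI in 90.0% of its 290 positive cells. The level of Flg thus came largely from cells rich in its transcripts, with 402 cells at 5 UMIs or more, whereas Tgm1 was spread thin. Cnfn rested on few cells, since 1 cell held 32 of its 154 UMIs and the 10 highest cells held 44.8%. Positive cells were deeper than negative cells, at a median of 4361 against 3246 UMIs for Flg and 5543.5 against 3393 for Cnfn.

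The members were detected in the same cells of P more often than their shares alone would give, for 27 of 28 pairs. Of 6638 thinned P cells, 36.5% had at least 1 member, 16.2% (15.3 to 17.1%) at least 2, 7.28% (6.66 to 7.93%) at least 3 and 2.15% (1.82 to 2.53%) at least 4. In D the share with at least 2 members was 0.408% (0.242 to 0.643%), and 1 of 4417 cells had 3. Without Ivl, 12.2% of P cells and 0.0226% of D cells, the latter 1 cell, had at least 2 members.

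**Figure D2:**
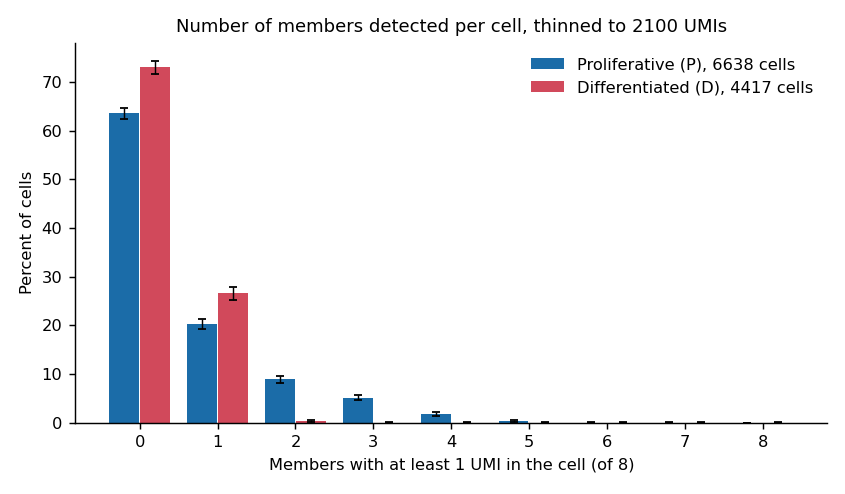
The horizontal axis counts how many of the 8 members had at least 1 UMI in a cell after thinning to 2100 UMIs, and the vertical axis gives the percent of cells in P (blue) and D (red) with exact binomial 95% intervals. Cells with 2 or more members made up 16.2% of P and 0.408% of D.

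For each of the 28 pairs, the number of P cells with both members was divided by the number expected from the product of both shares. The ratio was at least 2 in 22 pairs and above 1 in 27, with a median of 3.12, and the counting interval held 1 in 3 pairs. The 22 include Rptn with Cnfn and with Calml3, which rest on 2 and 3 cells. Ratios for pairs of other genes were not computed, so these counts have no background. Flg and Nccrp1 met in 473 cells, 3.69 times the expected 128 (3.36 to 4.03), which was 50.6% of Flg cells and 51.9% of Nccrp1 cells. Flg and Crnn met in 292 cells, at a ratio of 2.57 (2.28 to 2.88), and Crnn and Nccrp1 in 346 cells, at 3.11 (2.79 to 3.46). Rare members lay among cells of the frequent ones. Flg was found in 31 of 37 Cnfn cells, a ratio of 5.95 (4.05 to 8.45), and Crnn in 25 of 35 Rptn cells, at 5.86 (3.79 to 8.65). Calml3 had ratios of 4.16 with Flg and 4.38 with Nccrp1.

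In pairs with Flg, Crnn and Nccrp1, the ratios of Ivl and Tgm1 stood at the low end. The ratio of Ivl was 1.87 with Flg, 1.86 with Crnn and 2.15 with Nccrp1, and with Tgm1 it was 0.962 (0.628 to 1.41), from 26 cells where 27.0 were expected. Tgm1 stood at 2.187 (1.61 to 2.90) with Flg, 1.79 (1.24 to 2.50) with Crnn and 2.05 (1.49 to 2.76) with Nccrp1. These ratios had intervals above 1. With the rare members, Tgm1 stood at 5.75 (1.87 to 13.4) with Cnfn, from 5 cells, and at 2.88 with Calml3, while it met Rptn in 1 cell. Ivl stood at 2.97 (1.76 to 4.69) with Rptn, 2.18 with Cnfn and 1.71 with Calml3. In D, 22 of 28 pairs were never met in a cell, and the intervals of all 28 held 1. Cells of a library are not replicates, and the ratios describe this library only.

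**Figure D3:**
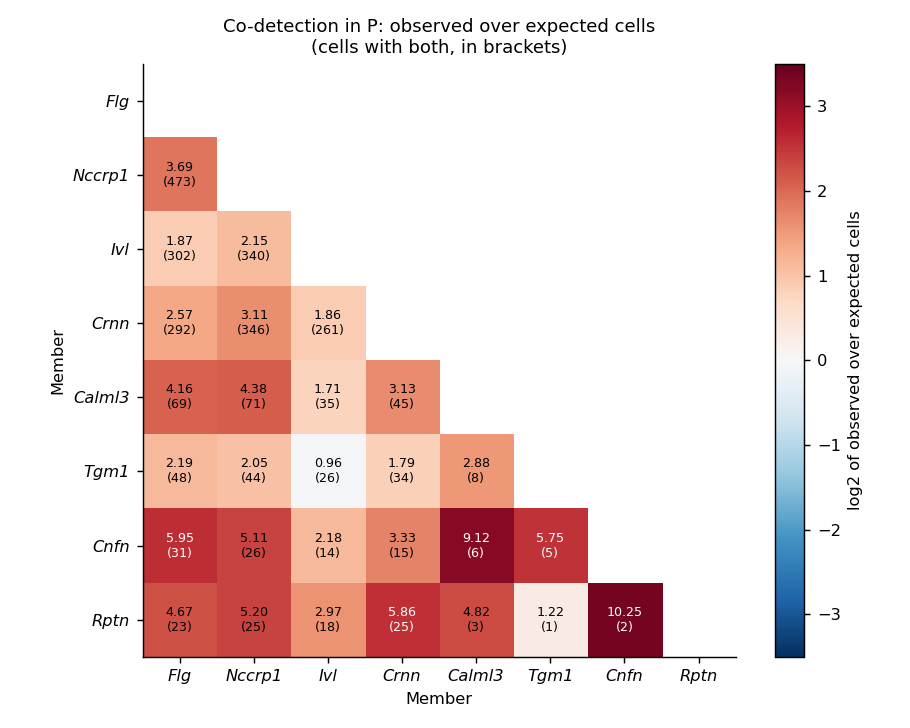
Each square gives, for a pair of members in P, the number of cells with both over the number expected from their separate shares, with the count of cells in brackets and colour on a log2 scale. Ratios lie above 1 for all pairs except Ivl with Tgm1 (0.962), and those resting on 1 to 3 cells, all with Rptn, are not read further.

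Other genes changed in step with the number of members detected. In P cells grouped by 0, 1, 2, 3 and 4 or more members (4218, 1343, 594, 340 and 143 cells), Psca, a surface antigen of the intermediate urothelial layer, went through 3.12, 15.97, 43.5, 76.8 and 126.9 UMIs per 10000. Sprr1a went from 1.53 to 35.9 between the outer groups, Krt13 from 1.82 to 17.0, Csta1 from 1.79 to 12.7 and Hopx, a homeodomain protein of differentiating epithelia, from 0.41 to 10.6. Basal genes ran the other way. Krt14 went from 26.7 to 2.06, Trp63, the master regulator of the basal layer, from 1.92 to 0.333, Itgb4 from 1.08 to 0.0666 and Col17a1 from 3.39 to 0.766, while Krt5 went from 34.6 to 24.7. Of the other basal markers, Itga6 went from 1.69 to 0.699, and Cd44 stood at 0.919 (0.857 to 0.984) and 0.733 (0.459 to 1.11), with overlapping intervals. Cells with 4 or more members were thus low in Krt14, Trp63, Itgb4, Col17a1 and Itga6 and high in Psca.

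Envelope genes outside the set did not all follow. Lor went from 0.159 UMIs per 10000 in cells without members to 0 UMIs in the 143 cells with 4 or more, where the exact Poisson upper bound is 0.123, and Tchh went from 0.284 to 0.699. Among regulators, Klf4 went from 1.11 to 2.70 and Grhl3 from 0.0689 to 0.333. The share of cycling cells went from 6.76% to 0 of 143, which by the limit of 3 counts allows up to 2.10%, and that of cells with a uroplakin UMI from 1.14% to 8.39%. Depth and ribosomal content moved along, with median UMIs before thinning of 3191.5 and 4263 and median ribosomal protein shares of 40.9% and 29.4% in the outer groups, and their part in these trends was not tested.

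**Figure D4:**
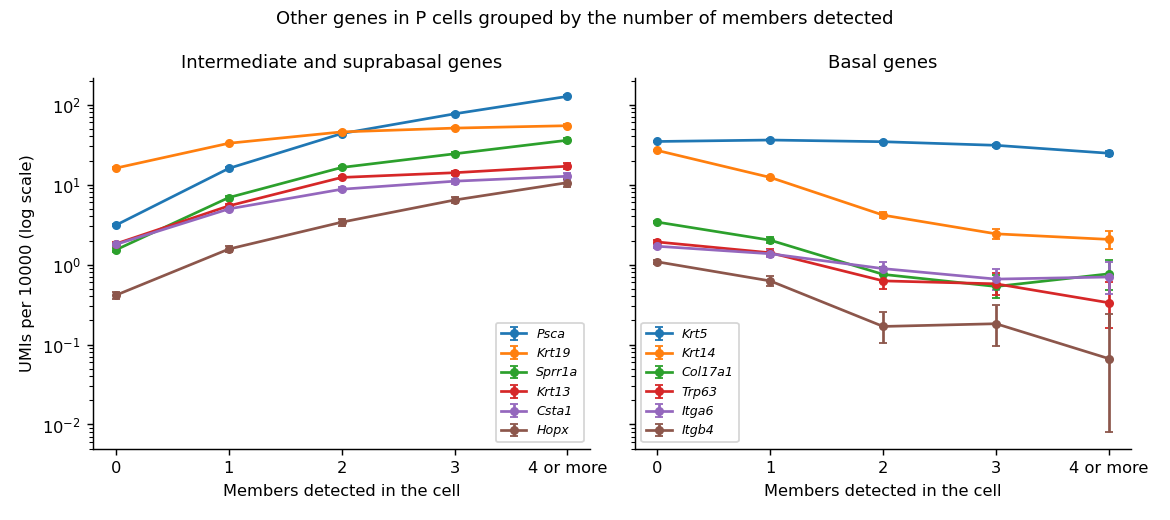
P cells are grouped on the horizontal axis by the number of members detected after thinning, and the vertical axis gives UMIs per 10000 of other genes on a log scale with Poisson 95% intervals. Psca climbs from 3.12 to 126.9 on the left, and on the right Krt14 drops from 26.7 to 2.06 while Krt5 stays between 24.7 and 36.1.

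Members also differed in how they met uroplakins, the genes of the luminal layer. Before thinning, the uroplakin UMIs of P were mostly of Upk1a (327) and Upk1b (181), with 29 of Upk3b, 7 of Upk2 and 4 of Upk3a. In D, Upk1a had 9680, Upk1b 7664 and Upk3a 6884 UMIs. Cells with a uroplakin UMI are therefore not a like class in both libraries. Among the 164 P cells with a uroplakin UMI, Crnn was detected in 40.2% (32.7 to 48.2%), Nccrp1 in 36.6% (29.2 to 44.5%), Ivl in 34.1% (26.9 to 41.9%) and Flg in 23.8% (17.5 to 31.0%). In the 6474 other cells the shares were 11.5%, 13.2%, 16.9% and 13.8%. Crnn, ranked below Flg over all P cells, was thus ahead of it among cells with a uroplakin UMI, with intervals that did not overlap. The cells with a uroplakin UMI were deeper before thinning, at a median of 3996 against 3440.5 UMIs.

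Clusters were built within each library without the members and without the lists of genes with related roles, so that the grouping did not use them. Cell type markers outside those lists and early-response genes could stay among the features. Marker levels by cluster are therefore not independent of the grouping. P gave 3 clusters. Cluster 2 was cycling-like (353 cells, with Ccnb1, Cenpf, Birc5 and Cdc20 among its 10 leading genes) and clusters 0 and 1 are called by number. Cluster 1 (2638 cells) had 5 of 7 basal markers raised but was led by Ctla2a, Nbl1 and Scnn1b. Cluster 0 (3827 cells) had all 9 intermediate markers raised but was led by Rptn, Bcl2l14, Cnfn and Sprr2f. It held 63.9% of all UMIs of P, but 97.9% of Flg UMIs, 97.8% of Crnn and of Nccrp1 UMIs, 98.4% of Calml3, 99.4% of Cnfn and all 138 of Rptn, and 85.0% of Ivl and 83.7% of Tgm1. In cluster 1, Ivl stood at 51.3 CPM (46.5 to 56.5) and Tgm1 at 5.61 CPM (4.09 to 7.50), against 165 and 15.9 in cluster 0. Their shares of thinned cells there, 8.90% (7.81 to 10.1%) and 1.04% (0.679 to 1.52%), were no higher than the 9.52% and 1.49% in cycling cells. Cycling cells are not known to lack these transcripts, so the comparison cannot tell whether cluster 1 expresses them. Flg was at 324 CPM in cluster 0, 5.98 in cluster 1 and 44.4 in the cycling-like cluster. After thinning, Rptn was detected in 35 of 3793 cells of cluster 0 (0.923%) and in 0 of 2506 cells of cluster 1, which by the limit of 3 counts allows a share of up to 0.120%. Cluster 0 was also deeper, at a median of 3834 UMIs against 2834 in cluster 1. At a finer resolution of 0.4, P gave 6 clusters, and a single one of 1224 cells held 21.3% of all UMIs of P. It held 69.7% of Flg, 65.7% of Crnn, 88.4% of Rptn, 86.4% of Cnfn, 70.9% of Calml3 and 70.6% of Nccrp1 UMIs. Of Ivl UMIs it held 42.9% and of Tgm1 UMIs 34.5%. Another cluster, of 1779 cells and 32.5% of all UMIs, held 42.5% of Tgm1 UMIs.

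**Figure D5:**
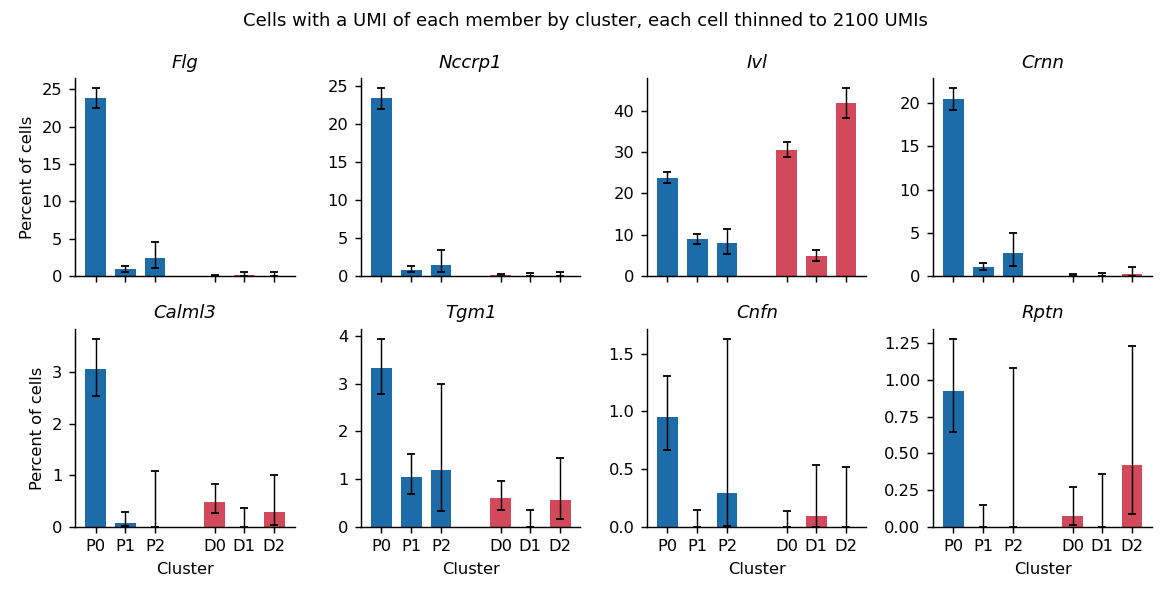
Each panel gives, for a member, the percent of thinned cells with at least 1 UMI in clusters 0 to 2 of P (blue) and of D (red), with exact binomial 95% intervals and a vertical axis of its own. All members peak in cluster 0 within P, and only Ivl has tall bars in D, where cluster 2 stands at 41.7%.

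In D the description rests on Ivl. Its level was 213 CPM (205 to 221) in cluster 0 of 2866 cells, 25.4 (20.8 to 30.8) in cluster 1 of 1304 cells and 382 (363 to 403) in cluster 2, a luminal-like cluster of 726 cells with all 5 uroplakins raised. Clusters 0 (led by Reg1, Krt1 and Agr2) and 1 (led by Acta2, Cav1 and Htra1) are called by number, and 6 of 7 basal markers were raised in cluster 1. Among thinned cells, Ivl was detected in 41.7% of cluster 2, 30.5% of cluster 0 and 4.84% of cluster 1. Of the Ivl cells of D, 72.6% (70.0 to 75.2%) had a uroplakin UMI, against 46.4% (44.7 to 48.1%) of cells without Ivl, and in P the shares were 4.87% (3.70 to 6.28%) and 1.97% (1.62 to 2.37%). Ivl was thus more frequent among cells with a uroplakin UMI in both libraries, although that class was made up differently in P and D. The other members were rare in D as a whole. At least 1 of them was detected in 1.55% (0.921 to 2.44%) of the Ivl cells of D and in 0.891% (0.597 to 1.28%) of its cells without Ivl. In P at least 1 other member was detected in 49.1% of Ivl cells and 23.1% of cells without Ivl.

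Likeness over cells was measured by Pearson's r of ln(1 + UMIs per 10000) over the 6818 kept P cells, among 7765 genes with at least 200 UMIs, as a description without a test. Cells share depth and ribosomal content, both of which enter these values. The 5 genes most like Flg were Psca (r = 0.57), Nccrp1 (0.55), Arg1 (0.53), Sprr1a (0.53) and Csta1 (0.48). For Crnn they were Psca (0.57), Mal (0.51), Sprr1a (0.51), Arg1 (0.49) and Gsto1 (0.46), and for Nccrp1 Psca (0.66), Sprr1a (0.60), Arg1 (0.57), Flg (0.55) and Mal (0.55). Psca, Sprr1a and Arg1 thus stood in all 3 lists. Ivl reached at most 0.35, with Sprr1a, followed by Psca, Nccrp1, Arg1 and Gsto1.

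The rare members gave weak values that are not read as findings. Rptn was led by Mal (0.24), then Hopx, Psca, Sprr1a and Pdzk1ip1, Calml3 by Flg (0.28), then AA467197, Nccrp1, Psca and Krt6b, Cnfn by Krt6b (0.32), then Sprr2f, Flg, Krt13 and Psca, and Tgm1 by Krt13 (0.19), then Krt6a, Fabp5, Csta1 and Krt6b. In D the 5 genes most like Ivl were Psca (0.39), Akr1b3 (0.37), Mal (0.35), the uroplakin gene Upk1b (0.34) and Gsta4 (0.34), and Krt14 was the most opposed (-0.35). Psca stood first for Flg, Crnn and Nccrp1 in P and for Ivl in D.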

How the data were processed

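Single-cell libraries of proliferative and differentiated urothelial organoids were made with the 10x Genomics 3′ kit, 1 per condition. Per the study's methods and the submitters' processing notes, the authors used bcl2fastq 2.19.0 and Cell Ranger 3.0.2 with the GRCm38/mm10 mouse genome. The deposited matrices hold raw counts of UMIs per gene and barcode as whole numbers, with no normalization by the authors. They list 8194 barcodes in P and 6975 in D, of which 10 are shared (6 after filtering).

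Cells with over 800 genes and at most 12% mitochondrial UMIs were kept, as in the study, and a minimum of exactly 800 genes would keep 6826 cells in P. Kept cells held 1477 to 23103 UMIs in P and 1176 to 24728 in D. Scrublet (scanpy 1.11.5, expected rate 6%) called 0 doublets in either library and so did not work. No cells were removed as doublets. UMIs were summed per library, and ratios, levels and shares carry exact 95% intervals (scipy 1.17.1) that cover counting error only. For a share of 0, the limit is 3 counts over the number of cells. With 1 library per condition no test was made. Thinning drew 2100 UMIs per cell without replacement. Clusters came from Seurat 5.3.0 in R 4.3.3 (2000 variable features less the 68 in P and 53 in D that are members or in the lists of related roles, 25 components in P and 21 in D, resolution 0.2). The lists of cell type markers and of early-response genes were not removed as such. Cluster names needed markers of the cell type lists, and rebuilt names may differ from those of the study. Intervals, thinning and co-detection ratios were tested on simulated data.

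Named genes were all 8 members, the 5 genes most like each over kept P cells, the genes of each list with the largest ratios or at 0, marker genes where groups of cells are described, and leading genes of clusters. Hrnr, Samd4b, Lor, Crct1, Blmh, Casp14 and other genes named for their role or position were added after their values were seen. The members, the 19 gene lists and the rules were chosen with earlier results of these data known. The calcium-binding list is not reported here as a whole.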

Additional observations from a re-analysis of the deposited data

Results flagged for a closer look

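Members were also present in the barcodes that the filter left out, which the comparisons above do not use. In P the 1376 left-out barcodes gave 515 UMIs of the 8 members per 1000000 non-mitochondrial UMIs (484 to 548), against 656 in kept cells. In D the 2079 left-out barcodes gave 131 on that scale (116 to 148), against 228. Both values lie above the limit that a count of 0 allows. Flg in left-out P barcodes stood at 267 on that scale (244 to 290), above its 225 (219 to 231) in kept cells, whereas Nccrp1 stood at 60.2 against 135 and Ivl at 71.8 against 132. In D, Flg had 1 UMI in the left-out barcodes.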

How the results depend on the processing

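The count of 7 members at least 2-fold lower in D held under all 8 alternatives in scaling, cell filter and cell selection, and the median log2 ratio lay between -5.20 and -4.18. Of 64 values of single members under these alternatives, 61 stayed within their counting interval, 0 changed sign, and 3 moved, all of Ivl, whose log2 ratio was 0.40 without mitochondrial and ribosomal protein genes in the total, 0.31 under median ratio scaling and 0.63 with over 1000 genes and at most 10% mitochondrial UMIs.

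The share of P cells with 3 or more members was set by depth and by the rule. It was 2.54% after thinning to 1000 UMIs, 13.3% at 3000 UMIs, 13.6% without thinning, 1.34% with at least 2 UMIs per member, 16.2% for at least 2 members, 2.15% for at least 4 members and 6.29% without the 5% of cells with most UMIs. Pairs with a ratio of at least 2 numbered between 15 and 24 under the alternatives in P, and 2 in D. The part of member UMIs in the P cluster that held most of them was 95.05%, 92.1% with members and lists among the features, and 63.4% at resolution 0.4, which divides the cells further.

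Since Scrublet called no cell, the planned removal of called doublets gave no value. Leaving out instead the 6% of cells with the highest score, chosen after seeing the data, gave 7 members lower in D, a share of 6.98% and 21 pairs. No paired analysis was possible because each condition has 1 library and no result comes from a test, and no library could be left out. Depth limits Rptn, Cnfn and, in D, all members but Ivl.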
